A study of Mus musculus with 5 samples.

Results

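The 10 genes described here encode cytokines that signal through gp130, the receptor chains they use and the JAK, STAT and SOCS proteins downstream. They are Lif, Clcf1, Il6st, Il6ra, Lifr, Osmr, Jak2, Stat3, Socs3 and Socs2, all protein coding, taken by name from the 19221 genes of the deposited table, and all 10 were found. Membership goes by name, with no threshold on a measured value, but the list was drawn up with earlier results of these data known. Only 5 of the 10 reached 1 RPKM (a read number scaled by gene length and library size) in at least 1 library, as did 12783 genes of the table. These 5 were Lif, Clcf1, Il6st, Stat3 and Socs3, and Lif and Clcf1 reached that floor only in the libraries where they were high.

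Cytokines of the interleukin-6 family bind a receptor of their own and bring it together with gp130, the shared signal chain encoded by Il6st. Janus kinases attached to the receptor then phosphorylate the transcription factor STAT3, which moves to the nucleus and switches on target genes. One of these targets is Socs3, whose protein binds gp130 and shuts the signal off. In the injured brain the pathway is known for its part in making astrocytes reactive and in the response of microglia and invading leukocytes.

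The samples were punches of the caudate putamen from male 9 week old mice of the strain C57BL/6 after photothrombosis, in which laser light on the circulating dye rose bengal makes clots in the lit vessels. All animals had rose bengal at 100 mg/kg, given into the peritoneum, and 532 nm light at 30 mW for 2 min through a fibre 3 mm below the dura. On the stroke side the dye came 5 min before the light, and on the sham side the light came before the dye. The stroke groups were 4 hours, 1 day, 3 days and 10 days after the lesion, each 1 library of total RNA pooled from 6 animals. The sham group was 1 library mixed from the opposite hemisphere of the mice, and the sources used here give neither its number of animals nor its times. It is therefore tissue of operated and lesioned animals, not of untouched ones.

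With 1 pooled library per group no difference has a replicate check, no p-value or standard deviation is given, and every statement compares these libraries. Library totals, estimated from the RPKM and the gene lengths, were 42261791 to 48013979 reads. Reads recovered from the RPKM give each ratio a 95% exact conditional binomial interval, called the counting interval here, which covers counting error only. Levels described as next to each other in order and not apart are those whose counting interval holds 1. A log2 fold here is log2((first RPKM + 1) / (second RPKM + 1)), a scale that understates differences of genes below a few RPKM. Genes whose fold reached 1, or -1 on the other side, are called higher or lower by size, and only genes above the floor of 1 RPKM could be called. The median ratio over these genes differed from sham by 0.41 (log2) in the 4 hour library, -0.05 on day 1, 0.16 on day 3 and 0.14 on day 10. Median-of-ratios scaling divides these factors out. Its effect is given beside the comparisons with sham and, for the 10 genes, the orders of libraries that it changes. The tissue label was checked against 7 markers of striatal projection neurons, and all 7 reached 1 RPKM in every library. Markers of cortical excitatory neurons (4 of 4 listed) were present too, mostly Slc17a7. They summed to 92.5 RPKM at 4 hours, 93.3 on day 1, 59.8 on day 3 and 53.7 on day 10, against 63.5 in sham. The check therefore does not show that the punches held striatum alone.

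By size, 3 of the 10 genes were higher on day 1 than in sham (Lif, Clcf1 and Socs3) and 2 were higher on day 3 (Clcf1 and Socs3). The day 1 count stands beside 3.33% of analysed genes called higher, and the day 3 count beside 9.04%. None of the 10 was higher by size at 4 hours, where 2.2% of genes were, or on day 10, where 4.2% were. None was lower by size at any of the 4 times, against 1.09% of genes at 4 hours, 1.35% on day 1, 0.618% on day 3 and 0.172% on day 10. With 1 added to each RPKM, a gene under 1 RPKM in sham cannot reach a fold of -1. Of the 10 genes only Il6st, Stat3 and Socs3 stood above 1 RPKM in sham, so the others could not be called lower. The median log2 fold of the 10 genes was -0.05 in the 4 hour comparison, 0.10 on day 1, 0.07 on day 3 and 0.05 on day 10. Over all genes of the table it was 0.16, -0.03, 0.05 and 0.05 at the same times. In bulk tissue, fewer cells of a type and less RNA per cell cannot be told apart.

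Genes under 1 RPKM in every library could not be called by size, so the counting interval was also read for all 10 genes. On day 1 it lay above 1 for 5 of the 10 (Lif, Clcf1, Osmr, Stat3 and Socs3) and below 1 for 2 (Il6st and Lifr), against 21.7% and 27.7% of all genes with recovered reads. On day 3 it lay above 1 for the same 5 genes and below 1 for Il6st, against 33.1% and 19.2%. On day 10 it lay above 1 for 4 (Il6st, Il6ra, Stat3 and Socs3) and below 1 for 0, against 26.2% and 10%. At 4 hours it lay above 1 for 3 (Stat3, Socs3 and Socs2) and below 1 for 3 (Osmr, Lifr and Clcf1), against 44.7% and 8.05%. After median-of-ratios scaling the 4 hour counts were 1 above (Socs2) and 6 below (Osmr, Lifr, Clcf1, Lif, Il6st and Jak2), against 18.9% and 25% of genes. The scaled counts were 5 above and 2 below on day 1 (23.8% and 25% of genes), 4 above and 1 below on day 3 (27.1% and 26.2%), and 4 above and 0 below on day 10 (18.3% and 18.8%).

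**Figure D1:**
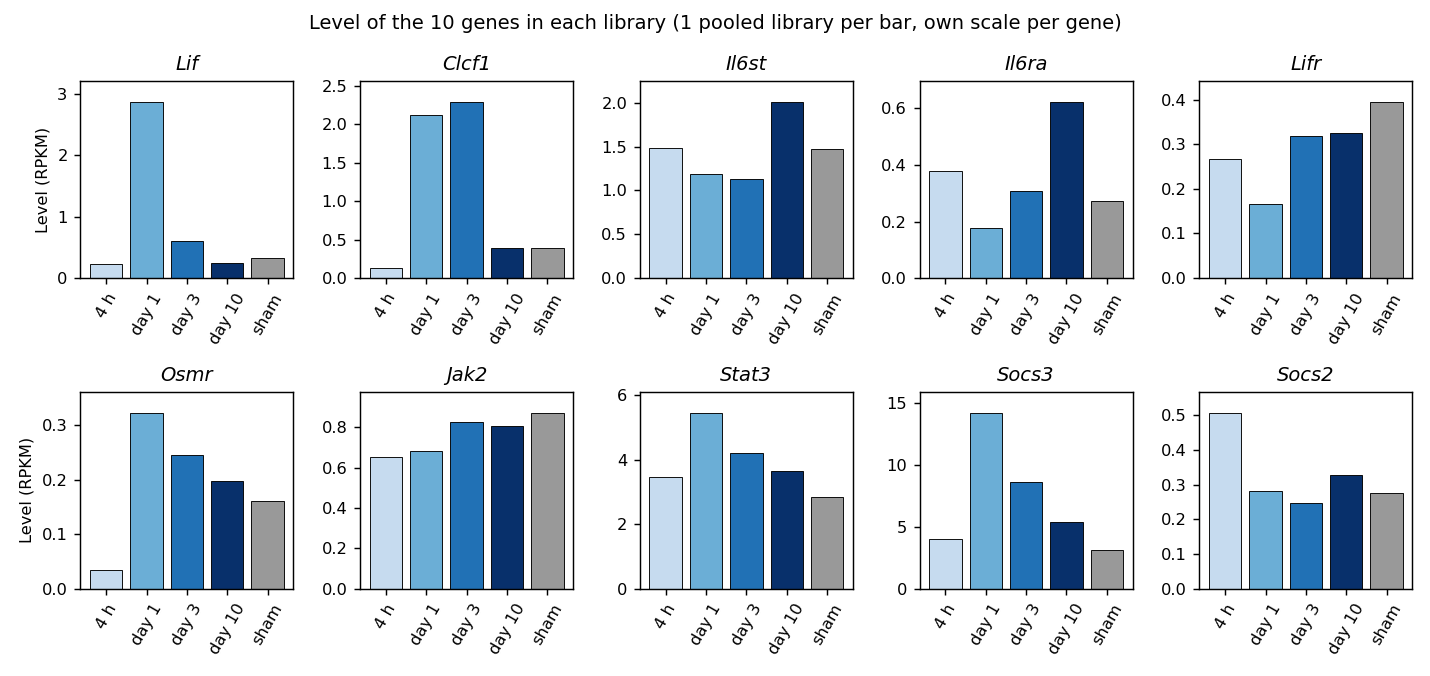
Level in RPKM of each of the 10 genes in the libraries of 4 hours, day 1, day 3 and day 10 after photothrombosis and in sham, 1 bar per pooled library and 1 vertical scale per gene, starting at 0. Lif, Osmr, Stat3 and Socs3 have their highest bar on day 1, Clcf1 on day 3, Il6st and Il6ra on day 10, Socs2 at 4 hours, and Lifr and Jak2 in sham.

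The 2 ligands had the widest ranges of the 10 genes, 12.5-fold for Lif and 17.7-fold for Clcf1 between the lowest and the highest library. Lif encodes leukaemia inhibitory factor, which signals through a pair of the LIF receptor and gp130 (chr11:4257557-4272514, plus strand, GRCm38). It stood at 0.230 RPKM at 4 hours, 2.87 on day 1, 0.609 on day 3 and 0.254 on day 10, against 0.327 in sham. These levels rest on 46, 578, 112 and 53 reads in the stroke libraries and 64 in sham. The day 1 library stands far above the others, day 3 lies next, and sham, day 10 and 4 hours are not apart from each other in order. The ratio of day 1 to sham was 8.76 (6.07 to 13.0), a log2 fold of 1.54 that exceeded the folds of 99.1% of analysed genes. Day 1 was also 12.5 times the level at 4 hours (8.15 to 19.98). By day 3 the ratio to sham was 1.86 (1.18 to 2.97), and at 4 hours and day 10 the interval held 1, though after median-of-ratios scaling it lay below 1 at 4 hours.

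Clcf1 encodes cardiotrophin-like cytokine factor 1, a ligand of the CNTF receptor complex that includes gp130 and the LIF receptor (chr19:4214238-4223490, plus strand). Its levels were 0.129 RPKM at 4 hours, 2.12 on day 1, 2.29 on day 3 and 0.393 on day 10, against 0.396 in sham. The reads behind them were 22, 365, 359 and 70 in the stroke libraries and 66 in sham. Days 1 and 3 were high and differed by less than counting error (ratio of day 3 to day 1 1.08, 0.872 to 1.33), while day 10 and sham were not apart and 4 hours lay below both. After median-of-ratios scaling day 1 became the highest library, still not apart from day 3 (interval of day 3 over day 1 0.756 to 1.15). The ratio to sham was 5.36 (3.69 to 8.03) on day 1 and 5.78 (3.97 to 8.66) on day 3, with log2 folds of 1.16 and 1.24 above those of 97.9% and 94.2% of analysed genes. At 4 hours it was below sham, at a ratio of 0.326 (0.149 to 0.661). Lif had thus left its high level by day 3, where Clcf1 still held it. The annotated exons of Clcf1 share 311 bases with those of a neighbour on the same strand, AC109138.7, so some reads may belong to either.

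Between consecutive times, 3 of the 10 genes were higher by size on day 1 than at 4 hours (Lif, Clcf1 and Socs3, with log2 folds of 1.65, 1.47 and 1.59), beside 2.7% of genes. The share of genes called lower in that comparison was 5.7%, and none of the 10 was among them. Of the 10, only Il6st, Stat3 and Socs3 stood above 1 RPKM at 4 hours and could have been called lower. On day 3 Lif was the 1 gene of the 10 lower by size than on day 1 (log2 fold -1.27), beside 0.939% of genes, and none was higher, beside 7.46%. On day 10 Clcf1 was the 1 gene lower than on day 3 (-1.24), beside 2.77% of genes, and none was higher, beside 0.626%. These comparisons share libraries with those against sham.

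The receptor chains ranged from 1.77-fold for Il6st, over 2.36-fold for Lifr and 3.51-fold for Il6ra, to 9.45-fold for Osmr. Il6st, which encodes gp130 (chr13:112464070-112510086, plus strand), was at 1.48 RPKM at 4 hours, 1.18 on day 1, 1.13 on day 3 and 2.01 on day 10, against 1.47 in sham. It rests on 532 to 1069 reads, and its highest level was 1.77 times its lowest. The ratio to sham was 0.804 (0.688 to 0.938) on day 1, 0.769 (0.655 to 0.903) on day 3 and 1.36 (1.19 to 1.56) on day 10. As deposited, the signal chain was thus lowest on days 1 and 3, the libraries in which Clcf1 and Socs3 were higher by size, and highest on day 10. At 4 hours the deposited level was not apart from sham (ratio 1.01, 0.870 to 1.17). After median-of-ratios scaling the log2 fold at 4 hours was -0.22 with an interval below 1, next to -0.15 on day 1 and -0.29 on day 3. The lowest libraries of Il6st were then day 3 and 4 hours, with 4 hours not apart from day 1 (interval of day 1 over 4 hours 0.937 to 1.28). The pairing of low Il6st with high Clcf1 and Socs3 then held for day 3 but not for 4 hours. Days 1 and 3, which were not apart as deposited, were apart.

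Il6ra encodes the interleukin-6 receptor, the chain that binds interleukin-6 itself (chr3:89864059-89913196, minus strand). It stood at 0.378 RPKM at 4 hours, 0.177 on day 1, 0.307 on day 3 and 0.622 on day 10, against 0.273 in sham, on 71 to 258 reads. Day 10 was the highest library and apart from the next, 4 hours, while none of the remaining neighbours in order were apart. It stood at a ratio to sham of 2.28 (1.64 to 3.20) and to day 3 of 2.03 (1.47 to 2.83). Both chains of the interleukin-6 receptor were thus highest on day 10. At the other 3 times the interval of the ratio to sham held 1. The exons of Il6ra share 242 bases with those of Gm42809 on the opposite strand, and the sources used here do not say whether reads were assigned by strand.

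Lifr encodes the LIF receptor, the partner of gp130 for LIF and for the CNTF complex (chr15:7090614-7197489, plus strand). Its levels were 0.268 RPKM at 4 hours, 0.167 on day 1, 0.318 on day 3 and 0.325 on day 10, against 0.394 in sham. Sham was the highest of the 5 libraries, not apart from day 10, and day 1 was the lowest, apart from the next, 4 hours, as deposited but not after median-of-ratios scaling (interval of day 1 over 4 hours 0.562 to 1.29). The ratio to sham was 0.678 (0.485 to 0.945) at 4 hours and 0.424 (0.285 to 0.621) on day 1, and on days 3 and 10 the interval held 1. Lifr was therefore lowest in the library where Lif, its ligand, was highest.

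Osmr encodes the oncostatin M receptor, which pairs with gp130 to bind oncostatin M (chr15:6813577-6874969, minus strand). It had 0.0341 RPKM at 4 hours, 0.323 on day 1, 0.246 on day 3 and 0.198 on day 10, against 0.162 in sham. Those levels are 19, 181, 126 and 115 reads in the stroke libraries and 88 in sham. In order, day 1, day 3, day 10 and sham were not apart from their neighbours, and 4 hours lay apart below them, while after median-of-ratios scaling day 3 was also apart from day 1 (interval 0.472 to 0.923). The ratio to sham was 0.211 (0.0927 to 0.432) at 4 hours and 1.99 (1.38 to 2.93) on day 1, and day 1 was 9.45 times the 4 hour level (4.84 to 20.8). On day 3 it was 1.52 (1.02 to 2.29), an interval that held 1 after median-of-ratios scaling, and on day 10 it was 1.22 (0.811 to 1.85). Because Osmr is low, these ratios are only -0.17 and 0.19 as log2 folds at 4 hours and day 1. With a pseudocount of 0.1 the log2 fold was -0.96 for 4 hours against sham and 1.66 for day 1 against 4 hours. The authors' deposited table gives GFOLD values of -1.41 and 2.45 for these 2 comparisons, past the 2-fold limit.

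The proportions of the receptor chains moved accordingly, as ratios of RPKM within a library, which no scaling between libraries touches. Il6st over Osmr was 43.5 in the 4 hour library, 3.67 on day 1, 4.61 on day 3 and 10.1 on day 10, against 9.12 in sham. Il6st over Lifr was 5.55, 7.09, 3.56 and 6.18 at those times, against 3.74 in sham, and Il6st over Il6ra was 3.93, 6.68, 3.70 and 3.23, against 5.40 in sham. Relative to Il6st, Osmr was thus more abundant on days 1 and 3 and less abundant at 4 hours than in sham.

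**Figure D2:**
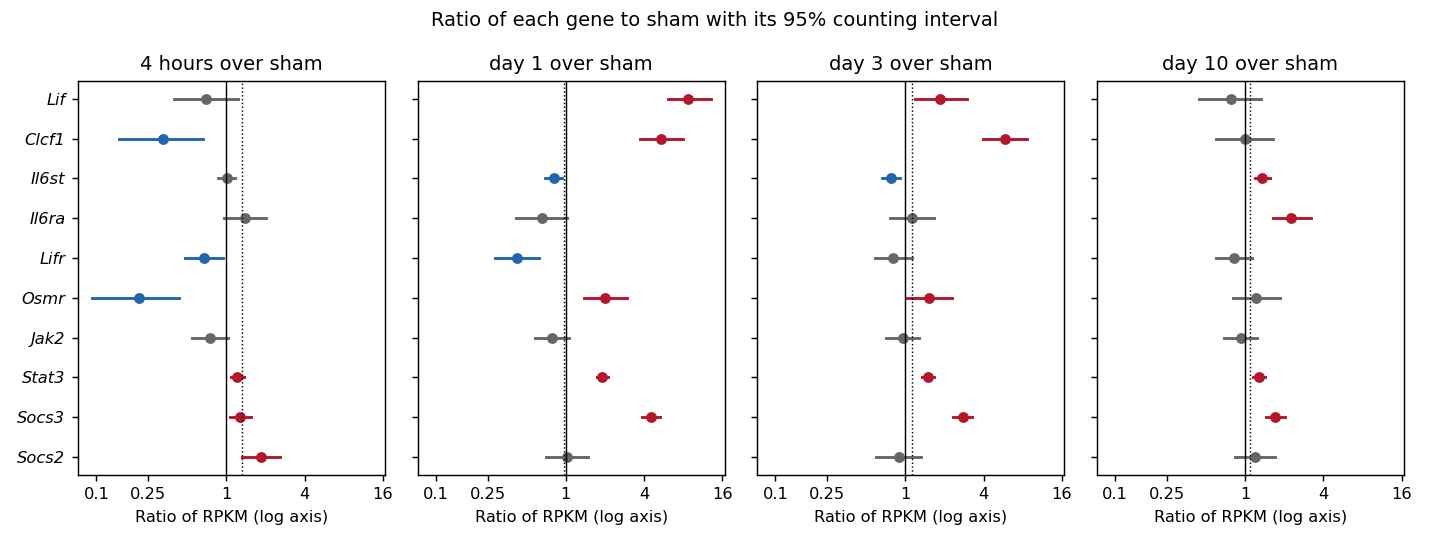
Ratio of RPKM in each stroke library to sham for the 10 genes, on a log axis, with 95% counting intervals that cover counting error only. Red intervals lie above 1, blue below 1 and grey hold 1, and the dotted line is the median-of-ratios factor of that library. Lif stands at 8.76 on day 1, Clcf1 at 5.36 on day 1 and 5.78 on day 3, and Osmr at 0.211 at 4 hours, while Jak2 is grey in all 4 panels.

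Jak2 encodes a kinase that phosphorylates gp130 and its partners (chr19:29251828-29313080, plus strand), and it had the smallest range of the 10 genes. It was at 0.653 RPKM at 4 hours, 0.682 on day 1, 0.828 on day 3 and 0.807 on day 10, against 0.872 in sham. Its highest level was 1.33 times its lowest, on 151 to 197 reads, and no neighbours in order were apart. The interval of its ratio to sham held 1 at all 4 times as deposited, from 0.749 (0.548 to 1.02) at 4 hours to 0.9497 (0.704 to 1.28) on day 3. After median-of-ratios scaling the 4 hour interval lay below 1, and 4 hours was apart from the next library, day 1.

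Stat3, the transcription factor at the centre of the pathway (chr11:100885098-100939540, minus strand), was at 3.47 RPKM at 4 hours, 5.44 on day 1, 4.22 on day 3 and 3.65 on day 10, against 2.85 in sham. The reads were 1519, 2403, 1698 and 1670 in the stroke libraries and 1220 in sham. Sham was the lowest library and day 1 the highest, day 10 and 4 hours were the only neighbours in order not apart, and no stroke library reached a 2-fold difference. The ratio to sham was 1.91 (1.73 to 2.11) on day 1, a log2 fold of 0.74 above those of 92.8% of analysed genes. It was 1.48 (1.33 to 1.64) on day 3 and 1.28 (1.15 to 1.42) on day 10. At 4 hours the deposited ratio was 1.22 (1.09 to 1.36), and after median-of-ratios scaling the log2 fold was -0.09 with an interval of 0.825 to 1.02, and 4 hours was then apart from day 10. The table measures Stat3 RNA, and the phosphorylation that activates the protein was not measured. Its exons share 72 bases with those of Stat5a on the opposite strand.

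Socs3, which encodes the feedback inhibitor of gp130 and is itself a STAT3 target (chr11:117966079-117970047, minus strand), had the highest RPKM of the 10 genes in every library. It stood at 4.03 RPKM at 4 hours, 14.2 on day 1, 8.63 on day 3 and 5.39 on day 10, against 3.14 in sham. The reads were 536, 1898, 1055 and 748 in the stroke libraries and 408 in sham. All 5 levels were apart from their neighbours in order: day 3 was at 0.609 times day 1 (0.547 to 0.678), and day 10 at 0.624 times day 3 (0.545 to 0.714) and still above sham. The ratio to sham was 4.51 (3.87 to 5.27) on day 1, 2.75 (2.33 to 3.25) on day 3 and 1.72 (1.44 to 2.04) on day 10. As log2 folds these are 1.87, 1.22 and 0.63, above those of 99.5%, 94.0% and 90.5% of analysed genes. At 4 hours the deposited ratio was 1.28 (1.07 to 1.55), and after scaling the log2 fold was -0.03 with an interval of 0.805 to 1.17.

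As deposited, Socs3 and Stat3 had the same order of libraries (day 1, day 3, day 10, 4 hours, sham), with a range of 4.51-fold for Socs3 and 1.91-fold for Stat3. After median-of-ratios scaling both were slightly below sham at 4 hours, so the last 2 libraries change places. The RPKM of Socs3 over that of Stat3 in the same library was 1.16 in the 4 hour library, 2.60 on day 1, 2.05 on day 3 and 1.48 on day 10, against 1.10 in sham. Over Il6st, the chain its protein binds, it was 2.72, 11.96, 7.61 and 2.69 at those times, against 2.13 in sham.

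Socs2 encodes a related protein best known for limiting growth hormone signalling (chr10:95385362-95417180, minus strand), and it did not share the pattern of Socs3. It was at 0.507 RPKM at 4 hours, 0.281 on day 1, 0.246 on day 3 and 0.328 on day 10, against 0.276 in sham. The 4 hour library was the highest and, as deposited, apart from the rest, whose neighbours in order were not apart. It stood at a ratio to sham of 1.84 (1.33 to 2.57), whose interval stayed above 1 after scaling. After scaling it was no longer apart from day 10 or from day 1 (interval of day 1 over 4 hours 0.547 to 1.05). At the later times the interval held 1, with ratios between 0.892 and 1.19. The RPKM of Socs3 over Socs2 was 7.96 in the 4 hour library, 50.5 on day 1, 35.1 on day 3 and 16.4 on day 10, against 11.4 in sham.

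STAT proteins bind DNA as dimers at the spaced palindrome TTCNNNGAA, and the windows around the start sites given by RefSeq (build GRCm38.p6, 250 bases before to 50 after the start) were searched for it. The palindrome reads the same on both strands, so both were covered. RefSeq windows were matched for 8 of the 10 genes, as 9 windows, and Clcf1 and Socs2 had none. Only the Socs3 window held the motif, with its first base 154 bases before the start, while 8.3% of all 32851 windows held it. None of the 9 held the stricter form TTCCNGGAA, which is contained in the first motif and was in 1.15% of all windows. The 250 bases before the RefSeq start of Socs3 are shown because it is the member with the motif, which is in capitals; they lie at chr11:117969367-117969616, minus strand, and are 71.6% G and C.
Socs3: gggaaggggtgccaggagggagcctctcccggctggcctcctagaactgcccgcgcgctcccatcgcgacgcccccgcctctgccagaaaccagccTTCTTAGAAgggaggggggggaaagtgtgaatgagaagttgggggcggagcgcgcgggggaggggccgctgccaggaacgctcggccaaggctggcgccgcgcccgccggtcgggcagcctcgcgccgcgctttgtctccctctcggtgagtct
The annotated start of the coding transcript of Socs3 in GENCODE release M21 lies 180 bases downstream of the RefSeq start, so these are not the bases directly before it. The searched window ended 50 bases after the RefSeq start, so the bases directly before the coding start were not searched. Whether they hold either form of the motif is not known from this search. A match describes letters only, and no binding was measured.

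Other genes of the pathway, 67 in a list grouped by role, put these values in context. Il27, Il31, Il31ra, Stat4 and Socs4 were not analysed here, which left 62, and 51 of these reached 1 RPKM in at least 1 library. Of the 51, 14 were under 1 RPKM in sham and passed only through stroke libraries, which favours calls in the higher direction. At 4 hours 1 of the 51 was higher by size and 4 were lower, beside 2.2% and 1.09% of analysed genes. On days 1, 3 and 10 the numbers higher were 13, 19 and 14, beside 3.33%, 9.04% and 4.2% of analysed genes. At each of these times 0 were lower, beside 1.35%, 0.618% and 0.172%. After median-of-ratios scaling the numbers higher were 13, 16 and 11, beside 3.83%, 7.1% and 3.48% of genes. Under that scaling 1 was lower on day 3 (Socs7), beside 1.15%. Of the genes higher on days 1, 3 and 10, STAT3 target genes made up 11, 14 and 10 as deposited, and 11, 13 and 7 after scaling.

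Among the other cytokines, Osm and Il11 were higher by size on day 1, Ebi3 on day 3 and Cntf on day 10, of 4 analysed. All 4 were under 1 RPKM in sham and passed the floor only in libraries where they were high, so this count is set by the floor. Osm encodes oncostatin M, the ligand of the Osmr product, and was at 0.546 RPKM at 4 hours, 1.66 on day 1, 0.792 on day 3 and 0.917 on day 10, against 0.167 in sham. It exceeded sham at all 4 times (ratio 9.98, 4.94 to 23.2, on day 1), so ligand and receptor both had their highest library on day 1. At 4 hours they parted, with Osm at 3.28 times sham (1.48 to 8.08) on 57 against 17 reads and Osmr below sham. Il6, the founding ligand of the family, stayed under the 1 RPKM floor, with 4, 87, 7 and 2 reads at the 4 times and 4 in sham (ratio on day 1 21.1, 5.50 to 180). Il11 stood at 0.119 RPKM at 4 hours, 1.53 on day 1, 0.106 on day 3 and 0.0207 on day 10, against 0.177 in sham. Lif, Il6 and Il11 thus had a single high library, day 1. Cntf, the ciliary neurotrophic factor gene, had 0.183, 0.523, 0.992 and 1.61 RPKM at the 4 times, against 0.145 in sham, with its highest library on day 10. Ebi3, a subunit of interleukins 27 and 35, was highest on day 3, at 2.08 RPKM against 0.533 in sham (log2 fold 1.01), a call lost after median-of-ratios scaling.

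**Figure D3:**
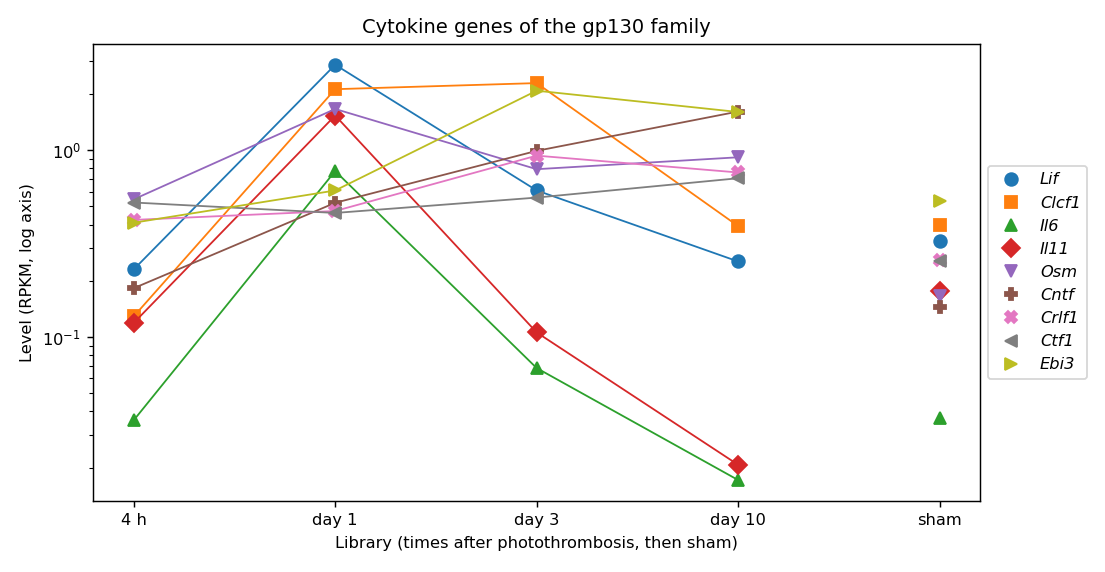
Level of 9 cytokine genes that signal through gp130 or its relatives, in RPKM on a log axis, in the stroke libraries in order of time (joined by lines) and in sham (separate points). Lif, Il6, Il11 and Osm have their highest point on day 1, Clcf1 and Ebi3 on day 3 and Cntf on day 10.

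Of the other receptors analysed, Csf3r was the 1 of 3 higher by size, on day 3 and day 10. It encodes the G-CSF receptor, a relative of gp130 found on neutrophils and other myeloid cells and one of the neutrophil markers used here, and had 0.941 RPKM at 4 hours, 1.26 on day 1, 5.19 on day 3 and 8.89 on day 10, against 1.21 in sham. Cntfr, the CNTF receptor that also serves Clcf1, was the most abundant receptor gene of the family, with 23.2 RPKM at 4 hours, 10.96 on day 1, 12.8 on day 3 and 13.6 on day 10, against 17.1 in sham. Its ratio to sham as deposited was 1.36 (1.26 to 1.47) at 4 hours and 0.642 (0.583 to 0.706) on day 1. On day 3 it was 0.748 (0.681 to 0.822) and on day 10 0.796 (0.728 to 0.871). Il11ra1 stayed between 4.98 and 6.49 RPKM in the stroke libraries, against 4.34 in sham. Cntfr, the chain that Clcf1 binds, was thus below sham on days 1 and 3, when Clcf1 was higher. It was also below sham on day 10, when Clcf1 was not apart from sham.

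Among kinases and adaptors, Jak3 was the 1 of 6 higher by size, at 5.38 RPKM on day 3 and 3.16 on day 10, against 0.832 in sham. Jak3 works with the common gamma chain of lymphoid and myeloid receptors, not with gp130. Jak1, the main gp130 kinase, was at 3.04 RPKM at 4 hours, 2.41 on day 1, 2.00 on day 3 and 2.51 on day 10, against 2.45 in sham. Tyk2 was at 1.81 RPKM on day 3 and 1.79 on day 10, against 0.658 in sham (ratio 2.75, 2.18 to 3.50, on day 3). Of 4 other STAT genes analysed, Stat6, which serves interleukins 4 and 13, was higher by size on day 3 (4.31 RPKM against 1.64 in sham, log2 fold 1.01), and this call was lost after median-of-ratios scaling.

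Of 11 other inhibitors, Ptpn6 was the 1 higher by size, at 12.7 RPKM on day 3 and 12.2 on day 10, against 2.03 in sham. It encodes the phosphatase SHP-1 of blood-derived cells and microglia. Socs7, another SOCS family gene, named after its values were seen, was at 8.82 RPKM at 4 hours, 3.70 on day 1, 2.74 on day 3 and 5.70 on day 10, against 6.06 in sham. Its day 3 ratio to sham was 0.452 (0.402 to 0.507), a log2 fold of -0.92 that was past the size limit only after median-of-ratios scaling. Socs1, whose protein like that of Socs3 blocks Janus kinases directly, had 0.553 RPKM at 4 hours, 1.59 on day 1, 1.34 on day 3 and 1.81 on day 10, against 1.02 in sham, and was not called at any time. As deposited, the listed receptors, kinases and inhibitors called in comparisons with sham were Csf3r, Jak3 and Ptpn6, and all 3 were higher by size on days 3 and 10.

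The 24 STAT3 target genes of the list, 23 of them analysed, include acute phase and astrocyte genes that other factors control as well. The list was chosen with earlier results of these data known. Of the 23, 6 were under 1 RPKM in sham, so they passed the floor only through stroke libraries and could not be called lower. Of all 23, 11 were higher by size on day 1, 14 on day 3 and 10 on day 10, with medians of 0.86, 1.34 and 0.72. After median-of-ratios scaling the numbers were 11, 13 and 7, beside 3.83%, 7.1% and 3.48% of genes under that scaling. Timp1, a metalloproteinase inhibitor, was at 60.4 RPKM on day 1 and 100.031 on day 3, against 11.1 in sham. Vim, an intermediate filament of reactive astrocytes, microglia and vessel cells, was at 107 RPKM on day 3 and 29.3 on day 10, against 5.90 in sham. Saa3, an acute phase gene, was at 5.66 RPKM on day 1 and 27.3 on day 10, against 0.376 in sham. As deposited, 18 of the 23 targets had their highest library on day 3 or day 10 and 2 on day 1, which was the highest of Socs3. Median-of-ratios scaling raises day 1 relative to the other stroke libraries, and these counts were not taken again under it. Targets with close levels, such as Mcl1 (7.42 RPKM on day 3 and 6.66 on day 1), can then have day 1 as their highest library. The contrast with Socs3 was therefore counted for the deposited levels only.

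At 4 hours the target list went in both directions, with 1 higher by size and 4 lower, beside 2.2% and 1.09% of analysed genes, and the counts were 1 and 4 after scaling too. Fos, named here after its values were seen, was the 1 higher, at 12.1 RPKM against 2.48 in sham. Timp1 was at 0.368 RPKM at 4 hours, on 15 reads, against 11.1 in sham, a log2 fold of -3.15, and Lcn2, the lipocalin 2 gene, at 0.780 against 10.3 (-2.66). The other 2, Serpina3n and Gfap, were also named after their values were seen and had log2 folds of -2.59 and -1.91. Osmr and Clcf1 were below sham in the same library.

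**Figure D4:**
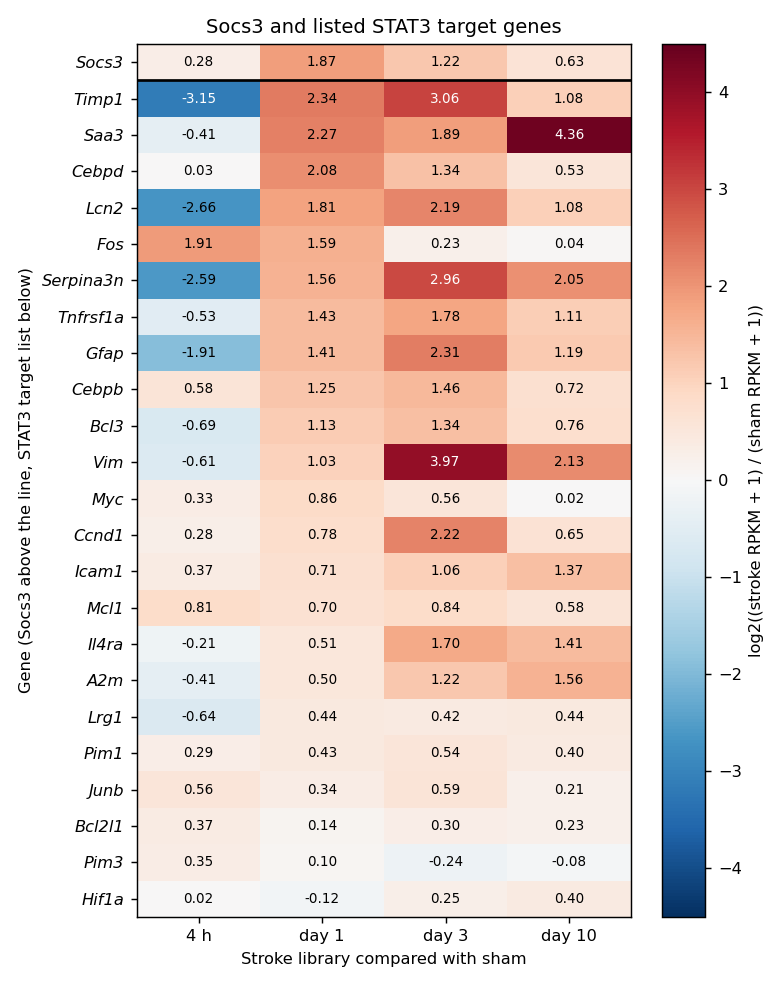
Log2 folds against sham of Socs3 (above the line) and of the 23 analysed STAT3 target genes, ordered by their day 1 fold, with 1 column per stroke library and the value in each cell (red higher, blue lower than sham). Socs3 runs 0.28, 1.87, 1.22 and 0.63 with its maximum on day 1, while Vim reaches 3.97 on day 3 and Saa3 4.36 on day 10, and Timp1 is at -3.15 at 4 hours.

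The genes whose 4 log2 folds against sham lay nearest to those of a member, by Euclidean distance over 10084 analysed protein coding genes, were Cebpd, Gm21860 and Plaur for Socs3 (distances 0.36, 0.433 and 0.435). Cebpd, a transcription factor gene of acute inflammation that is also on the target list, had log2 folds of 0.03, 2.08, 1.34 and 0.53. Its levels were 7.49 RPKM at 4 hours, 34.2 on day 1, 20.02 on day 3 and 11.05 on day 10, against 7.33 in sham. For Stat3 the nearest were Nipsnap3b, Gstk1 and Dnajc24 (0.0979, 0.117 and 0.136), and for Osmr, whose folds are all near 0 on this scale, Samd12, Ccdc159 and Gm21887 (0.0586, 0.114 and 0.123). The 4 folds share the sham library.

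Markers of other cell types differed between the libraries in which these genes were high and low. Neutrophil markers (5 of 6 listed were matched) summed to 154 RPKM on day 1, against 7.45 at 4 hours, 13.8 on day 3, 18.7 on day 10 and 12.4 in sham, with Cxcr2 at 0 at 4 hours and at 0.177 RPKM on day 1. The day 1 sum is mostly S100a9 (93.4 RPKM) and S100a8 (53.0), and it moves with the high library of Lif, Il6, Osm and Socs3. Csf3r, on the same list, ran otherwise, with 1.26 RPKM on day 1 against 1.21 in sham and its highest value on day 10. Monocyte and macrophage markers (6 of 6) summed to 16.2 RPKM at 4 hours, 75.7 on day 1, 142 on day 3 and 277 on day 10. In sham they summed to 22.8, and Ccr2 was at 0 at 4 hours. The sums of days 3 and 10 are mostly Lyz2 (97.9 and 245 RPKM), which like Ms4a7, Ly6c2 and Ccr2 was highest on day 10. Cd14 was highest on day 1 (42.7 RPKM, against 18.5 on day 10). Arg1 was highest on day 3 (10.2) and at 0.0841 on day 10, against 0.160 in sham. Microglial markers (6 of 6) stood at 86.1, 54.1, 347 and 306 RPKM, against 70.8 in sham, high on days 3 and 10 with Jak3, Ptpn6 and Csf3r.

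Among resident cells, astrocyte markers (6 of 6) summed to 276 RPKM at 4 hours, 216 on day 1, 193 on day 3 and 233 on day 10, against 241 in sham, none of them at 0. The sum is mostly Aldoc (143 RPKM on day 3 against 179 in sham), while Aldh1l1 (21.7 on day 3 against 10.1 in sham) and Aqp4 (3.23 against 1.599) went the other way. Striatal projection neuron markers (7 of 7) summed to 2168.5 RPKM at 4 hours, 862 on day 1, 1334 on day 3 and 1478 on day 10, against 1724 in sham, lowest in the library where Lifr and Cntfr were lowest. Choroid plexus markers (4 of 4) summed to 737 RPKM at 4 hours, 305 on day 1, 19.99 on day 3 and 0.389 on day 10, against 78.4 in sham, nearly all from Ttr, and highest in the library where Osmr and Clcf1 were lowest. The part of any of these cell types in the levels of the 10 genes was not tested.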

How the data were processed

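The authors deposited RPKM values of 19221 genes in 5 libraries, per the file headers, together with log2 folds and GFOLD values (a log2 fold shrunk for low reads) for pairs of libraries. Per the labels' protocols, RNA was extracted with Trizol and made into libraries with a total RNA kit. HISAT2 2.1.0, StringTie 1.3.4d, Trimmomatic 0.36 and the build GRCm38 are named in the submitters' processing notes with no roles or order, and strand use and annotation are not given in the sources used here.

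Identifiers were matched to GENCODE M21 (19158, or 99.7%). Each library total was estimated as the value at which RPKM times exon length and total came nearest to whole reads. At these totals the reads were whole, within 0.02, for 90.2% to 90.5% of values below 5000 reads, a share that the estimation itself raises. For Clcf1 and Lifr, lengths of 3713 and 10330 bases gave whole reads, in place of the annotated 3806 and 10776. Intervals used reads divided by 2, since even read numbers were in excess (55.3% to 57.3%). Medians of ratios used genes with at least 1 RPKM in 1 library.

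Of the listed pathway genes, up to 2 per role and comparison with the largest folds past the size limit are named, with the partners of members. Members and lists were chosen with earlier results of these data known. Scripts ran in Python 3.11.15 with numpy 2.4.6, pandas 2.3.3 and scipy 1.17.1 and were tested on simulated data. Alternatives were median-of-ratios and trimmed-mean scaling, no filter on level, a floor of 5 RPKM, pseudocounts of 0.1 and 0.5, a 1.5-fold limit and the authors' deposited GFOLD value. The counting interval as a call rule and its scaled form were added after seeing the data.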

Additional observations from a re-analysis of the deposited data

Results flagged for a closer look

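Some genes lay on opposite sides of sham at different times, and the difference between times was not tested in any of these cases. Il6st was at 0.804 times sham on day 1 and 0.769 times on day 3, but at 1.36 times on day 10. Osmr was at 0.211 times sham at 4 hours and 1.99 times on day 1. Clcf1 was at 0.326 times sham at 4 hours, 5.36 times on day 1 and 5.78 times on day 3.

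Of the STAT3 target list, 4 genes were lower by size at 4 hours and higher on day 3. Timp1 had log2 folds of -3.15 at 4 hours and 3.06 on day 3, Serpina3n of -2.59 and 2.96, Lcn2 of -2.66 and 2.19, and Gfap of -1.91 and 2.31. The sham library holds tissue of the lesioned animals themselves, from the other hemisphere.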

How the results depend on the processing

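No call by size changed direction under any alternative run. With a pseudocount of 0.1, 1 of the 10 genes was lower at 4 hours (Clcf1) and 2 were lower on day 10 than on day 3 (Clcf1 and Lif), because the smaller pseudocount compresses low genes less. With a floor of 5 RPKM only Socs3 and Stat3 were left to call: the number higher was 1 on day 1, 1 on day 3 and 1 for day 1 against 4 hours, and the number lower was 0 for day 3 against day 1 and 0 for day 10 against day 3. With a 1.5-fold limit 4 genes were higher on day 1 (Stat3 was added), 1 was higher on day 10 (Socs3), and 2 were lower for day 3 against day 1 (Lif and Socs3) and 2 for day 10 against day 3 (Clcf1 and Socs3). Scaling by medians of ratios left 1 gene with its interval above 1 at 4 hours and 6 below it, against 3 and 3 as deposited. Over the settings run, the day 1 log2 fold against sham ranged over 1.87 to 2.14 for Socs3, 1.54 to 2.796 for Lif and 1.16 to 2.16 for Clcf1. Over all analysed genes, 281 were higher and 139 lower at 4 hours as deposited, and 69 and 260 after this scaling; for day 1 against 4 hours the numbers were 345 and 728, and 838 and 128. For the pathway list that last comparison had 11 higher and 3 lower, and 12 and 0 after scaling. No paired analysis was possible because each group is 1 library. Among genes reported here, depth limits the 4 hour values of Il6 and Saa3 (4 reads each), Cntf (9), Timp1 (15), Osmr (19) and Clcf1 (22).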
